A study of Mus musculus with 4 samples.

Results

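The proteasome genes of mouse colon intraepithelial lymphocytes were followed across 4 single-cell RNA libraries. Members were all gene symbols that begin with Psma, Psmb, Psmc, Psmd, Psme or Psmg followed by a digit and that all 4 libraries listed. This gave 46 genes, of 12698 symbols listed in all 4 libraries and 15301 listed in any. The rule looked at symbols and not at levels. The 46 were split into the immunoproteasome set of 5 (Psmb8, Psmb9, Psmb10, Psme1 and Psme2) and 41 other members. A further symbol that fits, Psma8, which encodes a testis α subunit, was listed only in the TCRβ libraries, with 7 and 3 UMIs, and was not a member. Psmc3ip fits the rule by its letters only: it encodes a meiotic recombination cofactor and is no subunit, and it is described apart where it stands out.

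The cells were live CD3+ CD8α+ lymphocytes sorted from colon as TCRβ+ or as TCRγ+, the latter titled Tcrgd and called TCRγδ here. In each sort a Tcf7WT and a Tcf7KO library were made, 1 library per group, so there is no spread between replicates anywhere below. All 4 libraries carry the same strain label, E8IcreTcf7fl/fl, and only the genotype label tells Tcf7WT from Tcf7KO. E8I is a Cd8a enhancer, which drives Cre in mature CD8α+ cells, and Tcf7 encodes the transcription factor TCF-1. How many mice entered a library, and their age, are not given in the sources used here.

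The proteasome is the protease that degrades ubiquitin-tagged proteins. Its 20S core is a barrel of α rings around β rings, in which Psmb5, Psmb6 and Psmb7 carry the active sites. The 19S particle caps the barrel with a ring of ATPases (Psmc) and lid and base subunits (most Psmd) that bind, unfold and feed the substrate. Psmd5, Psmd9 and Psmd10 encode chaperones of 19S assembly, and Psmg proteins are chaperones of 20S assembly. In lymphocytes and in cells exposed to interferon-γ, the inducible subunits encoded by Psmb8, Psmb9 and Psmb10 take the places of the products of Psmb5, Psmb6 and Psmb7. Psme1 and Psme2 encode the PA28 activator, which caps the same barrel, and together these changes alter the peptides that reach MHC class I.

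Values are unique molecular identifiers (UMIs, 1 per captured transcript end), added up within each library and given as CPM, counts per 1000000 of its total. Values of the 4 libraries are listed in 1 order throughout: first the TCRβ sort, Tcf7WT before Tcf7KO, and then the TCRγδ sort, again Tcf7WT before Tcf7KO. They held 7603, 5785, 1888 and 1511 cells and 6195292 to 20289960 UMIs, with a median of 2431, 2860, 3188 and 4366 UMIs per cell. The targeted gene, Tcf7, stood at 148, 107, 45.7 and 14.6 CPM, lower in the library labelled Tcf7KO of both sorts and absent from neither. Reads from transcript ends outside the floxed part would not show a deletion. All 12 T cell markers were detected in every library, at a summed 11203 to 13253 CPM, and 4 of 7 myeloid markers (Lyz2, Csf1r, C1qa and C1qb) were listed in none. The other 3, Cst3, Itgax and Fcer1g, summed to 1824, 2025, 2185 and 2906 CPM, of which Fcer1g held 1808, 2010.05, 2128 and 2875 CPM; their part in the results was not tested. Epithelial markers summed to 461, 434, 905 and 2791 CPM. Cells with at least 2% of their UMIs from 20 epithelial markers numbered 11, 3, 17 and 18 and held 0.642%, 0.595%, 1.56% and 5.98% of the UMIs, so TCRγδ Tcf7KO stands apart. Pairs of libraries shared 1 to 10 cell barcodes.

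The 46 members took 0.784%, 0.738%, 0.694% and 0.711% of the UMIs of the 4 libraries. The 5 immunoproteasome genes summed to 2051, 1922, 1841 and 1730.2 CPM, highest in TCRβ Tcf7WT and lowest in TCRγδ Tcf7KO. The other 41 summed to 5793, 5461, 5100.2 and 5379.7 CPM. Of all members' UMIs, the immunoproteasome set held 26.1% (exact Clopper-Pearson 95% interval 25.9 to 26.4%), 26.0% (25.8 to 26.3%), 26.5% (26.1 to 26.9%) and 24.3% (24.0 to 24.7%). The first 3 shares have overlapping intervals and TCRγδ Tcf7KO lies below them. That library also has the most UMIs from epithelial cells (5.98%), in which the set is low (below). Their part in this share was not tested. All intervals cover counting error only, and none covers differences between mice or sorts.

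**Figure D1:**
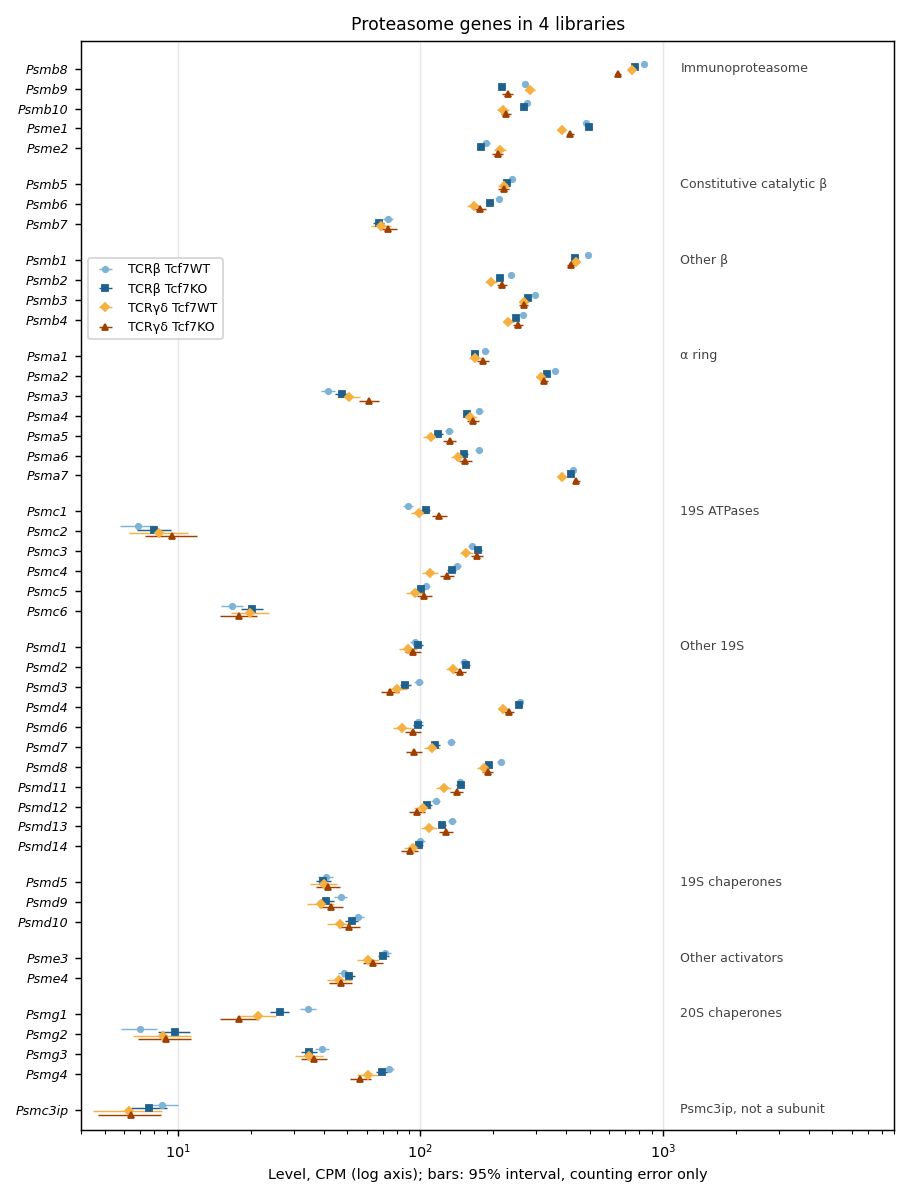
Level of each of the 46 genes in CPM (log axis) in the 4 libraries, grouped by class. Points are 1 library each and bars are exact Poisson 95% intervals, counting error only. The 4 libraries lie close together for nearly every gene, with Psmb8 between 652 and 834 CPM.

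Psmb8 encodes β5i, the inducible chymotrypsin-like subunit. It stood at 834, 764, 744 and 652 CPM, higher in Tcf7WT than in Tcf7KO within both sorts and higher in TCRβ than in TCRγδ within both genotypes. Psmb9 encodes β1i and stood at 270.4, 217, 283 and 229 CPM, with both Tcf7WT libraries above both Tcf7KO libraries. Psmb10, for β2i, stood at 276, 268, 219 and 226 CPM, with both TCRβ libraries above both TCRγδ libraries. Psme1, for PA28α, stood at 483, 496, 382 and 415 CPM and was also higher in both TCRβ libraries. Psme2, for PA28β, stood at 187, 177, 213 and 208 CPM, in the reverse order of sorts. The 5 genes of the set therefore did not share one order across the libraries.

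Of the constitutive counterparts, Psmb5 (β5) stood at 238, 227, 221 and 220.1 CPM. Psmb6 (β1) stood at 211, 193, 166 and 176 CPM, higher in both TCRβ libraries; between the Tcf7WT libraries TCRγδ was 1.28-fold lower (log2 ratio -0.35, exact conditional 95% interval -0.45 to -0.25). Psmb7 (β2) stood at 73.5, 67.2, 68.9 and 73.6 CPM with no order by sort or genotype. Other loci annotated as copies of Psmb5, Psmb6, Psmb7 and Psme2 exist (Psmb5-ps, Psmb6-ps, Psmb6-ps2, Psmb7-ps2 and Psme2b), and whether reads were split with them is not given in the sources used here.

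Psmb8 and Psmb9 lie side by side in the MHC on chromosome 17 of GRCm38, with the peptide transporter genes between and beside them. Psmb9 runs from 34181987 to 34187764 on the minus strand, Tap1 from 34187553 to 34197225 and Psmb8 from 34197721 to 34201454, both on the plus strand, and Tap2 from 34203527 to 34216321. These are GENCODE spans, on which Psmb9 and Tap1 overlap. The RefSeq starts, used for the windows below, differ from them. The RefSeq starts of Psmb9 (34187330) and Tap1 (34187556) point away from each other with 225 bases between them. The window before Psmb9 thus also holds the first bases of Tap1, and reads there cannot be told apart without strand. The windows of 250 bases before the starts of both genes and of Psmb6 and Psmb5 are shown because these genes form the 2 catalytic pairs whose balance is compared next. Psmb9 is at chr17:34187331-34187580 (minus), Psmb8 at chr17:34197945-34198194 (plus), Psmb6 at chr11:70525107-70525356 (plus) and Psmb5 at chr14:54617996-54618245 (minus), from RefSeq on GRCm38.p6. The Psmb9 and Psmb8 windows lie wholly inside the GENCODE spans above, so they are upstream of the RefSeq starts only. Capitals mark matches on either strand to TTCNNNGAA (the core of the gamma-activated site), the paired GAAA of interferon response elements (GAAA, any 2 bases, GAAA), TGACNNNGC (the core of the antioxidant response element), CCAAT or GGGCGG (the GC box).
Psmb9: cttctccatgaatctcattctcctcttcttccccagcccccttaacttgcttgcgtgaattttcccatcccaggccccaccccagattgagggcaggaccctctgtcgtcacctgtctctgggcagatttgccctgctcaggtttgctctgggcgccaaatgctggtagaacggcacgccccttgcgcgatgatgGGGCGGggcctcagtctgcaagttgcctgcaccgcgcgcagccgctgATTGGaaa
Psmb8: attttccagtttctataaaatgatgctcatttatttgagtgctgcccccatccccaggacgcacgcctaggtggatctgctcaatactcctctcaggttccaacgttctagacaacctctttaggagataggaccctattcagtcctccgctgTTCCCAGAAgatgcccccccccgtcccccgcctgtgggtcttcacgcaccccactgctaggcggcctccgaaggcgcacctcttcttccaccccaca
Psmb6: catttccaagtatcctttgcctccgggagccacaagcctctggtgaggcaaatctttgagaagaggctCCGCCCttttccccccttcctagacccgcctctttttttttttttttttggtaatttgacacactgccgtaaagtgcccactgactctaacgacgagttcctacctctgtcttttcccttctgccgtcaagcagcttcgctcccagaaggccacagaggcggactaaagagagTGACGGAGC
Psmb5: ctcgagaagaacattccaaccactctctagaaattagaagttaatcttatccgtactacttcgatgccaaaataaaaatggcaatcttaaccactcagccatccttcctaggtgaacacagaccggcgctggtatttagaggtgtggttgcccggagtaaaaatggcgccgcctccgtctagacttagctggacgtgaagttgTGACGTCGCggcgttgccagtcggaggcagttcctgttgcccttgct
Positions are given from the RefSeq starts. In the Psmb8 window the TTCNNNGAA match began 97 bases before that start, which is inside the GENCODE span of the gene. The Psmb9 window held a GC box at 55 and a CCAAT box at 8 bases before the start. TGACNNNGC began 9 bases before the start of Psmb6 and 47 before that of Psmb5. Of the 46 members, 39 had a window in the table. The counts that follow are over windows of 300 bases, 250 before the start and 50 from it on. TTCNNNGAA was in 3 of these (Psmb8, Psmd2 and Psmg1) and in 8.30% of 32851 RefSeq windows. The paired GAAA was in 5, Psme1 among them with a match that begins at base 10 of the gene, against 3.44% of all windows. TGACNNNGC was in 6, none of the immunoproteasome set, against 12.4%. CCAAT was in 14 and GGGCGG in 23, against 37.4% and 35.7%. These are matches of letters in the window and describe no binding.

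Each inducible subunit and its counterpart fill the same place of the barrel, and the share of a pair's UMIs does not depend on library scaling. Transcript ends of different genes are captured unequally, so a share is compared only between libraries. Psmb8 held 77.8% (77.3 to 78.4%), 77.1% (76.5 to 77.7%), 77.1% (76.0 to 78.2%) and 74.8% (73.7 to 75.8%) of the UMIs of Psmb8 and Psmb5. Psmb9 held 56.1% (55.1 to 57.1%), 52.9% (51.8 to 54.0%), 63.1% (61.2 to 64.9%) and 56.5% (54.7 to 58.4%) of the UMIs of Psmb9 and Psmb6. Within each sort the Psmb9 share was higher in Tcf7WT, with intervals apart, and TCRγδ Tcf7WT was the highest of the 4. Without the cells of at least 2% epithelial UMIs, the Psmb8 shares of TCRγδ Tcf7WT and Tcf7KO were 77.4% (76.3 to 78.5%) and 75.8% (74.7 to 76.9%). These intervals overlap, where those over all cells are apart. The Psmb9 shares were then 63.6% (61.7 to 65.4%) and 58.2% (56.3 to 60.0%), still apart. Psmb10 held 79.0% (78.0 to 79.9%), 79.9% (78.9 to 80.9%), 76.1% (74.0 to 78.0%) and 75.4% (73.5 to 77.2%) of Psmb10 and Psmb7. Here the genotypes of a sort overlapped and TCRβ Tcf7KO lay above both TCRγδ libraries. The 2 PA28 genes, neighbours on chromosome 14, also split by sort: Psme1 held 72.1% (71.4 to 72.9%) and 73.7% (72.9 to 74.5%) of the pair in TCRβ against 64.2% (62.6 to 65.8%) and 66.6% (65.2 to 68.0%) in TCRγδ.

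The first comparison asked how the genotypes differ within the TCRβ sort. Psmb9 was 1.25-fold lower in Tcf7KO than in Tcf7WT, a log2 ratio of CPM of -0.32 (exact conditional 95% interval -0.38 to -0.26), and Psmb8 was lower at -0.13 (-0.16 to -0.09). Psmb10 (-0.04, -0.10 to 0.01, and above 0 with TMM factors) and Psme1 (0.04, -0.003 to 0.08) had intervals that reach 0, and Psme2 was at -0.07 (-0.14 to -0.01). Both PA28 genes moved with scaling. With TMM factors Psme1 was at 0.11 with its interval above 0, and Psme2 at -0.006 with an interval that spans 0. No member was 1.5-fold apart, where 3.9% of 10764 genes with at least 100 UMIs over both libraries were. At 1.2-fold, 2 members were lower, Psmb9 and Psmg1 (all genes, 13.7%), and 2 were higher, Psmg2 and Psmc6 (all genes, 7.26%). With TMM factors, as with DESeq2 size factors, 1 was lower (Psmg1, with Psmb9 short of it) and 4 were higher. Of all genes, 9.05% were then lower and 10.7% higher with TMM factors, and 9.197% and 10.5% with DESeq2 size factors. By any amount, 35 of 46 were lower, against 65.1% of all genes. The median log2 ratio was -0.087 for members and -0.067 for all genes, so the lower side is near the background.

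Among the other members of this comparison, Psmg1, a chaperone that starts 20S assembly, was lowest, from 34.5 to 26.3 CPM (-0.39, -0.56 to -0.22). Psmd7, a lid subunit, went from 133 to 115 CPM (-0.21, -0.30 to -0.13) and Psma6, of the α ring, from 174 to 151 CPM (-0.21, -0.28 to -0.13). At the other end Psmg2, the chaperone partner of Psmg1, went from 6.95 to 9.69 CPM (0.48, 0.15 to 0.81), with the lowest counts of the 3. The ATPase genes Psmc6 (16.8 to 20.2 CPM, 0.27, 0.05 to 0.49) and Psmc1 (89.0 to 104.9 CPM, 0.24, 0.14 to 0.33) were higher too. By class, all 3 constitutive catalytic genes (2 with TMM factors, another scaling), all 4 other β genes and 6 of 7 α ring genes (5 with TMM) were lower, and 4 of 6 ATPase genes (5 with TMM) were higher. The split depends on scaling: 31 of the 41 other members were lower by total UMIs and 23 with TMM factors. All genes moved too: 7009 of 10764 were lower and 3755 higher by total UMIs, against 5358 and 5406 with TMM factors.

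Within the TCRγδ sort, Psmb9 was again lower in Tcf7KO (-0.31, -0.40 to -0.21), as was Psmb8 (-0.19, -0.25 to -0.13). Psme1 was higher (0.12, 0.04 to 0.20), and Psmb10 (0.04, -0.06 to 0.15) and Psme2 (-0.03, -0.14 to 0.07) had intervals that span 0. Cells that pass the epithelial gate hold more of the UMIs of TCRγδ Tcf7KO than of the other libraries, and they carry few Psmb8 and Psmb9 UMIs (below). Without them Psmb9 was at -0.25 (-0.35 to -0.15), Psmb8 at -0.12 (-0.18 to -0.07) and Psme1 at 0.16 (0.08 to 0.24). The summed set moved from -0.09 to -0.04 (-0.08 to -0.002) without these cells, and with each cell weighing the same it was at 0.0018.

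No member of the TCRγδ sort was 1.5-fold apart between genotypes, where 8.03% of 9219 genes were. Of the 45 members with enough UMIs, Psmb9 was at least 1.2-fold lower (all genes, 17.8%), and Psma3 and Psmc1 were at least 1.2-fold higher (all genes, 13%). With TMM factors 5 were higher and 1 lower (all genes, 15.9% and 14.2%). With DESeq2 size factors 5 were higher and none, Psmb9 included, was lower (all genes, 16.2% and 14.0%). By any amount 32 of 45 were higher, against 44% of all genes, with medians of 0.067 and -0.034. Psma3 (α ring) went from 50.5 to 61.5 CPM (0.28, 0.07 to 0.50), Psmc1 from 99.1 to 119.8 CPM (0.27, 0.12 to 0.43) and Psma5 from 111 to 132 CPM (0.25, 0.11 to 0.40). Psmd7 went down from 112 to 94.4 CPM (-0.25, -0.40 to -0.09), Psmg1 from 21.3 to 17.8 CPM (-0.26, -0.62 to 0.10) and Psmc6 from 19.9 to 17.8 CPM (-0.16, -0.52 to 0.21). All 7 α ring genes and 5 of 6 ATPase genes were higher. The 41 other members as a sum were at 0.08. With TMM factors 34 of the 41 were higher in place of 31, 27 were without the cycling cells described below, and 24 were with cells of 500 to 3500 genes. Of all 9219 genes, 4744 were higher with TMM factors in place of 4057.

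**Figure D2:**
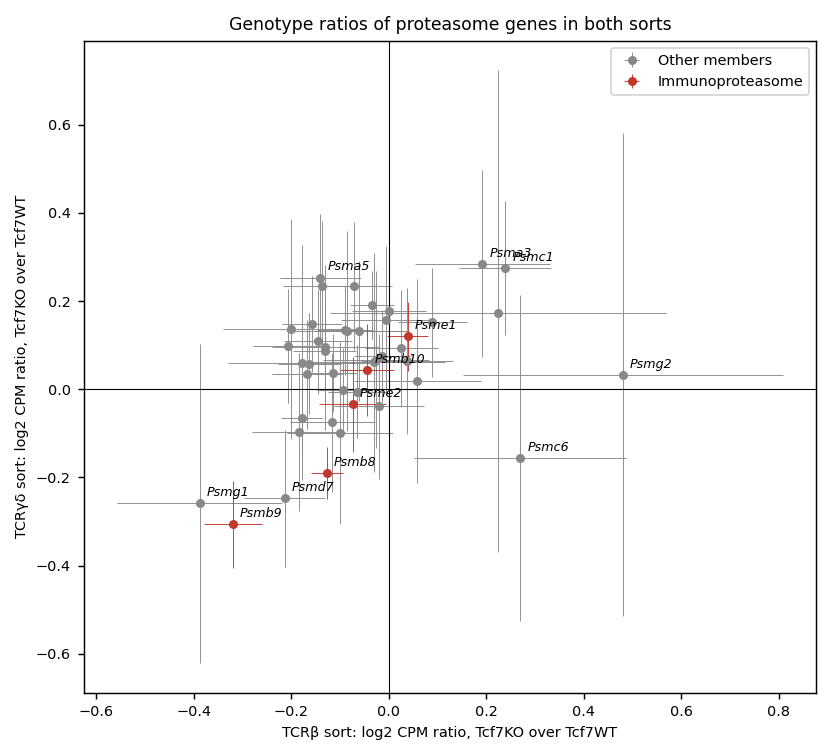
Log2 ratio of CPM, Tcf7KO over Tcf7WT, in the TCRβ sort (horizontal) and in the TCRγδ sort (vertical) for 45 members with at least 100 UMIs in both comparisons. Bars are exact conditional 95% intervals, counting error only. Psmb8, Psmb9 and Psmd7 lie at the lower left with both intervals below 0, and Psmg2 and Psmc6 lie to the right.

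Taking both sorts side by side, 3 of 45 members had both genotype intervals below 0 (Psmb8, Psmb9 and Psmd7), where 9.4% of 9108 genes did. With TMM factors and with DESeq2 size factors the same 3 did, beside 5.04% and 5.12% of all genes. Psmd7 encodes a lid subunit beside the deubiquitinating one and is no immunoproteasome gene. It stood at 133, 115, 112 and 94.4 CPM, and the TCRγδ Tcf7KO library was the lowest. Psmc1 was higher in Tcf7KO in both sorts, at 89.0, 104.9, 99.1 and 119.8 CPM, and Psma3 likewise, at 41.6, 47.5, 50.5 and 61.5 CPM. The Poisson intervals of neighbouring libraries overlapped for Psma3. Psmc3, another ATPase gene, stood at 163, 173, 155 and 172 CPM (0.09, 0.02 to 0.16, and 0.15, 0.03 to 0.27). These 3 had both intervals above 0, where 5.8% of all genes did. With TMM or DESeq2 scaling 5 members had, beside 8.71% and 8.64% of all genes. Intervals on opposite sides of 0, in either direction, were seen for 4 members and 3.34% of all genes. All 4 (Psma5, Psmb2, Psmb4 and Psmd13) were below 0 in TCRβ and above 0 in TCRγδ, which 2.13% of all genes were. With TMM factors 3 members were (Psma1, Psma6 and Psmb2), beside 1.26% of all genes. With DESeq2 size factors these and Psmb6 were, beside 1.36%, so Psmb2 alone of the first 4 kept its place.

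The second pair of comparisons asked how the sorts differ within a genotype. Among Tcf7WT libraries, Psme1 was lower in TCRγδ at -0.34 (-0.40 to -0.27), Psmb10 at -0.33 (-0.42 to -0.25) and Psmb8 at -0.17 (-0.21 to -0.12). Psme2 was higher at 0.19 (0.10 to 0.28), and the interval of Psmb9 reached 0 (0.06, -0.01 to 0.14). In Tcf7KO libraries the same signs came out: Psme1 -0.26 (-0.32 to -0.20), Psmb10 -0.25 (-0.33 to -0.16), Psmb8 -0.23 (-0.28 to -0.18), Psme2 0.23 (0.14 to 0.32) and Psmb9 0.08 (-0.01 to 0.16). Without the epithelial cells the last comparison gave Psmb8 -0.15 (-0.20 to -0.10), Psmb10 -0.21 (-0.29 to -0.12) and Psmb9 0.15 (0.07 to 0.24).

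One member was 1.5-fold apart between sorts in Tcf7WT, Psmg1, where 13.7% of 10283 genes were. Psmg1 was 1.62-fold lower in TCRγδ (-0.69, -0.97 to -0.42), and in Tcf7KO it was at -0.56 (-0.86 to -0.28), short of 1.5-fold. No member passed 1.5-fold in Tcf7KO, where 15.7% of 10231 genes did. With each cell weighing the same, with cells of 500 to 3500 genes, or without the epithelial or the cycling cells, 1 did. The share of all genes under these settings is not given here. At 1.2-fold, 12 members were lower in TCRγδ Tcf7WT (all genes, 25.9%) and 3 were higher (all genes, 15.6%). That split moved with scaling, to 5 lower and 5 higher with TMM factors (all genes, 18.6% lower and 20.1% higher) and to 6 lower and 4 higher with DESeq2 size factors (19.1% and 19.6%). In Tcf7KO 3 were lower, Psmg1, Psmg4 and Psmd7 (all genes, 26.3%), and Psma3 alone was higher (all genes, 17.7%). With either other scaling 1 was lower and 3 were higher (all genes, 21.5% and 20.3% with TMM, 21.6% and 20.3% with DESeq2). By any amount 39 of 46 were lower in Tcf7WT, against 62.5% of all genes, and 28 of 46 in Tcf7KO, against 60%. With TMM factors the 41 other members were lower in 20 cases in Tcf7KO in place of 25. Of all 10231 genes, 5482 were then lower in place of 6137. The Tcf7WT and Tcf7KO comparisons use different libraries, and the difference between them was not tested.

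In the Tcf7WT libraries the other members at the low end were Psmg1, Psmc3ip (8.62 to 6.30 CPM, -0.45, -0.99 to 0.05) and the ATPase Psmc4 (141.3 to 109.3 CPM, -0.37, -0.49 to -0.25). Psma3 (0.28, 0.09 to 0.47), Psmg2 (0.33, -0.15 to 0.79) and Psmc2 (0.29, -0.20 to 0.76) were at the high end, the last pair with few UMIs. All 11 other 19S genes and all 4 other β genes were lower in TCRγδ, where 62.5% of all genes were. Both counts stayed with TMM factors, where 5365 of 10283 genes were lower. In the Tcf7KO libraries the low end held Psmg1, Psmg4 (69.4 to 56.5 CPM, -0.30, -0.46 to -0.13) and Psmd7 (-0.28, -0.41 to -0.16), and the high end Psma3 (0.37, 0.20 to 0.54), Psmc2 (0.24, -0.19 to 0.67) and Psmc1 (0.19, 0.07 to 0.31). There 6 of 7 α ring genes (7 with TMM) were higher in TCRγδ and 10 of 11 other 19S genes (9 with TMM) were lower. Of all 10231 genes, 4094 were higher and 6137 lower by total UMIs, and 4749 and 5482 with TMM factors.

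**Figure D3:**
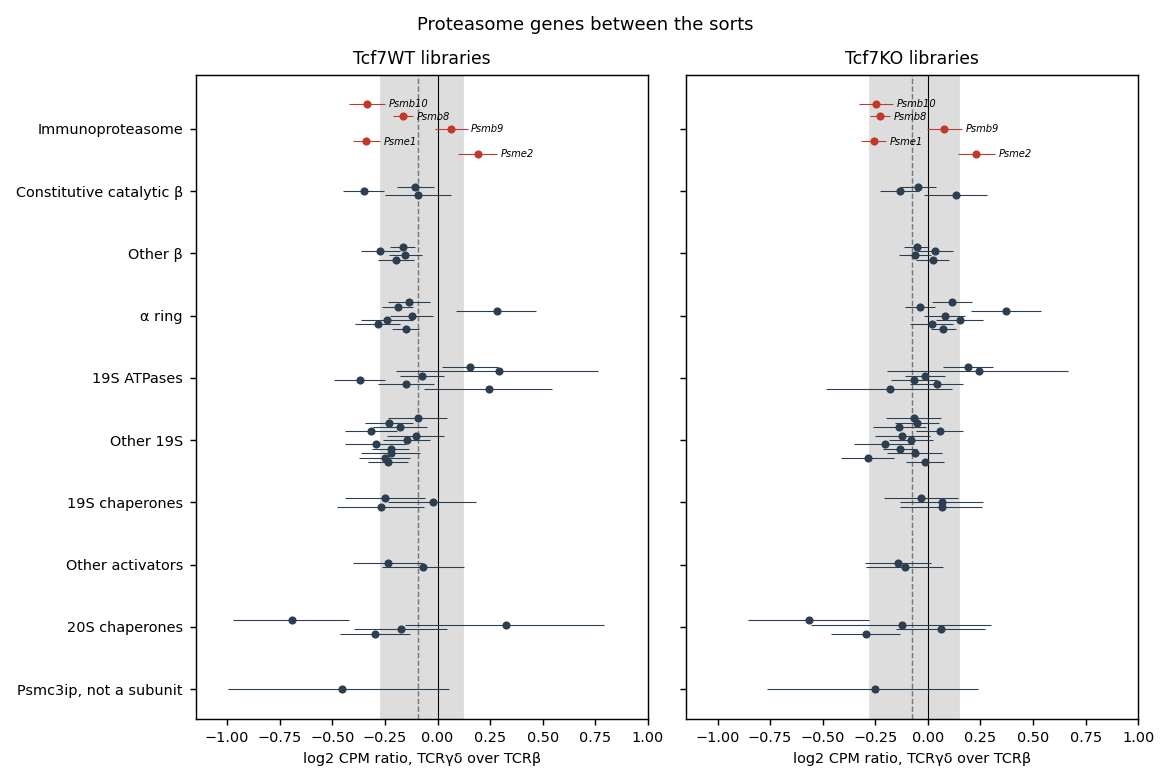
Log2 ratio of CPM, TCRγδ over TCRβ, for each member by class, in Tcf7WT (left) and Tcf7KO (right) libraries. Points are genes, bars are exact conditional 95% intervals, the grey band is the middle 50% of all genes tested and the dashed line their median. Psme1 and Psmb10 lie left of 0 and Psme2 right of it in both panels, and the leftmost point of the 20S chaperones is Psmg1.

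To compare shares of cells with a UMI of Psmb8 or Psmb9, cells were thinned to 1624 UMIs, the 10th percentile of the library with the lowest median depth, and 759, 489, 300 and 28 shallower cells were left out. A Psmb8 UMI was then found in 73.9%, 71.1%, 70.5% and 66.4% of cells, where the unthinned shares were 85.1%, 86.2%, 82.8% and 92.4%. For Psmb9 the thinned shares were 35.0%, 29.6%, 37.3% and 31.5%, against 48.6%, 46.6%, 54.6% and 63.2% unthinned. The epithelial cells described below, the class with the least Psmb8, held it at 0 to 41.5 CPM. Both unthinned shares, like the depth per cell, were highest in TCRγδ Tcf7KO. A thinned cell held a median of 12, 12, 11 and 11 UMIs of the 46 members, and 4.53%, 5.10%, 5.98% and 6.14% of cells held none of the immunoproteasome set.

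Gzma, which encodes the cytotoxic protease granzyme A, was detected in 9.10%, 28.4%, 59.3% and 83.3% of thinned cells. In thinned cells of the epithelial gate, which should lack it, it was in 0 of 10, 0 of 3, 0 of 10 and 1 of 18 (exact Clopper-Pearson upper limits 30.8%, 70.8%, 30.8% and 27.3%), and their unthinned level was 7.68, 9.14, 41.5 and 30.3 CPM against 1666, 4502, 12672 and 20130 CPM in the other cells. Median depths were 11086, 38231, 2363 and 23409 UMIs in the gate and 2430, 2860, 3191 and 4354 outside. The classes below are cells with and without a Gzma UMI; outside the gate 19.6%, 21.8%, 6.48% and 3.803% of the former held a single one, and the part of free RNA in them was not tested. Within cells with a Gzma UMI, Psmb9 was lower in Tcf7KO than in Tcf7WT in both sorts, at -0.41 (-0.61 to -0.21) in TCRβ and -0.30 (-0.48 to -0.11) in TCRγδ. In cells without one it was at -0.30 (-0.39 to -0.20) in TCRβ and -0.06 (-0.40 to 0.28) in TCRγδ, the latter from 229 cells of the Tcf7KO library. Psme1 was higher in Tcf7KO within Gzma cells of both sorts, at 0.35 (0.17 to 0.52) and 0.36 (0.21 to 0.52). In cells without Gzma it was at 0.04 (-0.02 to 0.11) and -0.01 (-0.27 to 0.25). Between the sorts in Tcf7WT, Psme1 was at -0.06 (-0.26 to 0.13) in cells with Gzma and -0.14 (-0.28 to 0.00) in cells without. Psme2 stayed higher in TCRγδ Tcf7WT in both, at 0.50 (0.21 to 0.78) and 0.30 (0.09 to 0.50).

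Cycling cells were those with at least 3 UMIs of 13 cell cycle markers (Stmn1, also on the marker list, was not used), epithelial cells left out. There were 82, 88, 42 and 34. The 41 other members summed to 7606, 7180, 6481 and 7387 CPM in them, against 5741, 5391, 5032 and 5280.02 CPM in the remaining cells, a log2 ratio of 0.41, 0.41, 0.37 and 0.48. The immunoproteasome set was at 0.10, 0.19, 0.03 and -0.07. Of the 41, 30 were higher in cycling cells in all 4 libraries (all genes, 18.2%), and of the 5, Psme2 alone was. Psma4 (median log2 ratio 0.84), Psmb2 (0.75) and Psmd1 (0.74) were among the higher, and Psma3 (-0.14) and the nuclear activator Psme4 (-0.26) were lower in all 4 libraries. Psmc3ip stood furthest out, at 58.6, 30.5, 29.0 and 43.8 CPM in cycling cells against 7.34, 6.64, 5.32 and 4.96 CPM in the others.

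Cycling cells were also deeper, with a median of 6347, 7231, 6084 and 8113.5 UMIs against 2421.5, 2842, 3152 and 4337. Against cells outside the gate that were at least as deep, an alternative chosen after seeing the data, the 41 other members were at 0.29, 0.26, 0.13 and 0.17. Of 37 with enough UMIs, 9 were then higher in all 4 libraries, beside 17.1% of all genes. The Psmb8 share of its pair was lower in cycling cells than in the others in 3 libraries with intervals apart, at 71.2% against 77.5% in TCRβ Tcf7KO, 68.7% against 77.9% in TCRγδ Tcf7WT and 68.0% against 76.2% in TCRγδ Tcf7KO. In TCRβ Tcf7WT it was 76.2% (72.7 to 79.4%) against 78.0%, overlapping. Deep cells outside the gate gave 77.2% (73.4 to 80.6%), 74.8% (71.7 to 77.7%), 76.6% (71.7 to 81.0%) and 68.2% (61.2 to 74.5%). Against those, the intervals of the cycling cells (67.9 to 74.4%, 62.9 to 74.1% and 62.2 to 73.4% in the last 3 libraries) overlapped in all 4 libraries. The Psmb10 share of its pair was lower in cycling cells than in the others in all 4 libraries. Its intervals were apart in TCRβ Tcf7WT and TCRγδ Tcf7KO. In TCRβ Tcf7WT it was 66.5% (59.3 to 73.2%), and 80.3% (73.9 to 85.7%) in deep cells outside the gate. In the last 3 libraries the Psmb10 intervals of cycling and deep cells overlapped. For Psmb9 the intervals of cycling and other cells overlapped in all 4 libraries.

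**Figure D4:**
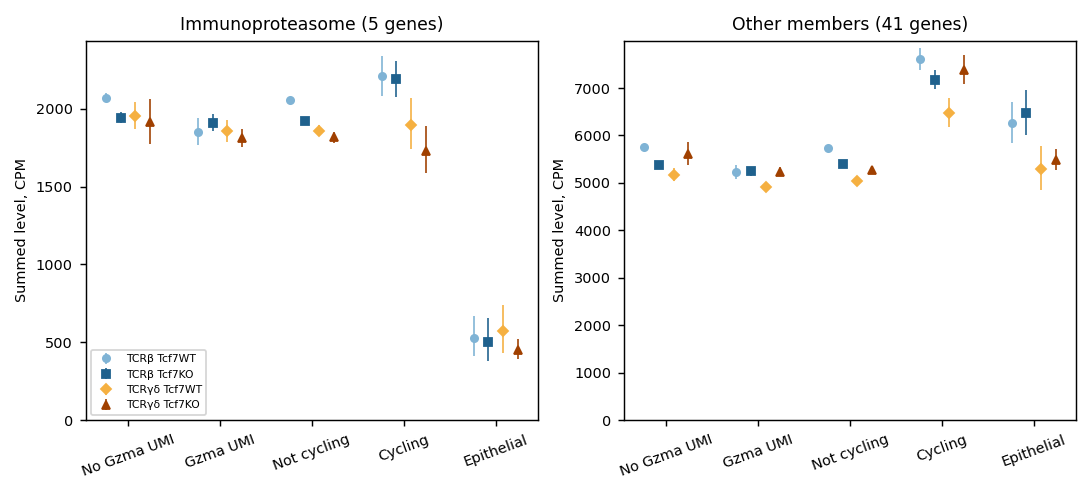
Summed CPM of the 5 immunoproteasome genes (left) and of the 41 other members (right) in classes of cells, by library, with exact Poisson 95% intervals. Cells with and without Gzma were thinned to 1624 UMIs. The immunoproteasome sum falls to between 451 and 570 CPM in epithelial cells while the other members stay between 5300 and 6471 CPM there.

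The few epithelial cells, 49 in all, give a contrast inside the same libraries. Their T cell markers summed to 15.4, 54.8, 31.1 and 37.2 CPM, against 11275, 11288, 12628 and 14094 CPM outside the gate. The immunoproteasome set stood at 529.7, 503, 570.5 and 451 CPM in them, a log2 ratio to the remaining cells of -1.96, -1.94, -1.71 and -2.005. The 41 other members were at 0.11, 0.25, 0.06 and 0.03. Of the 5 genes, 4 were lower in all 4 libraries, beside 35.6% of all genes. Psmb8 had 0, 4, 4 and 8 UMIs in these cells, against 45, 29, 26 and 89 UMIs of Psmb5. A count of 0 of 45 in TCRβ Tcf7WT allows a Psmb8 share of up to 6.67%, with a floor of 3 counts (exact Clopper-Pearson upper limit 7.87%), and by that floor the Psmb8 level outside the gate was at least 36.5-fold higher. The shares in the other libraries were 12.1% (3.4 to 28.2%), 13.3% (3.76 to 30.7%) and 8.25% (3.63 to 15.6%).

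Psmb9 held 15%, 14.3%, 4.35% and 9.18% of its pair in the epithelial cells. Psmb10 differed from both: it held 61.0% (44.5 to 75.8%), 66.7% (47.2 to 82.7%), 71.0% (52.0 to 85.8%) and 47.7% (37.9 to 57.5%) of its pair, and its level was at -0.53 (-1.16 to 0.04), -0.55 (-1.26 to 0.08), 0.06 (-0.62 to 0.67) and -0.97 (-1.40 to -0.57) relative to the remaining cells. Psme1 was at -1.17, -1.68, -1.13 and -1.41 and Psme2 at -1.29, -1.11, -0.91 and -0.71. Among the other members, Psmd1, the large 19S base scaffold, was higher in the epithelial cells of all 4 libraries (median 1.13), as were Psme4 (1.13) and Psmd7 (0.70). In all, 11 of 41 were higher in all 4, beside 20.6% of all genes, and 5 (Psma2, Psmb1, Psmb2, Psmc4 and Psmg2, the last with 3 UMIs over the 4 gates) were lower in all 4, beside the 35.6% above. One cell held 45.8% of the epithelial UMIs of TCRβ Tcf7KO, and without the deepest cell of each library the immunoproteasome set was at -2.05, -2.14, -1.78 and -2.05, an alternative chosen after seeing the data.

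**Figure D5:**
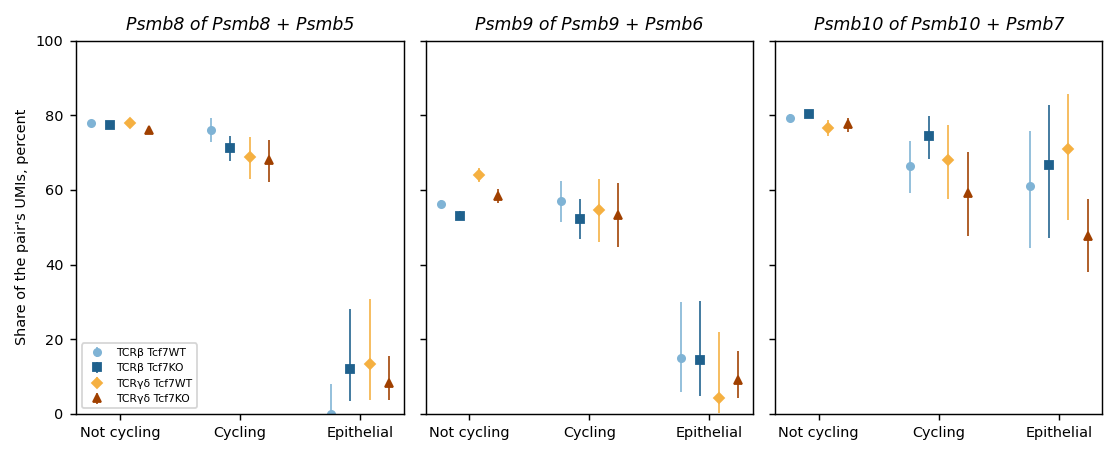
Share of a pair's UMIs held by the inducible subunit in cells outside the cycling gate, in cycling cells and in epithelial cells, by library, with exact Clopper-Pearson 95% intervals. Psmb8 is at 0 to 13.3% and Psmb9 at 4.35 to 15% in epithelial cells, while Psmb10 is at 47.7 to 71.0% there.

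Genes that work with the proteasome were read from a list of 26 (ubiquitin genes, shuttle factors, regulators and assembly factors). Of those with enough UMIs, 1 of 23 was at least 1.2-fold higher and 1 lower between the TCRβ genotypes, and 2 of 22 were higher and 1 lower between the TCRγδ genotypes. In TCRγδ against TCRβ 5 of 22 were higher and 3 lower in Tcf7WT, and 2 of 22 were higher and 0 lower in Tcf7KO. The all-gene shares at 1.2-fold given above were 7.26% higher and 13.7% lower, 13% and 17.8%, 15.6% and 25.9%, and 17.7% and 26.3% in these 4 comparisons, and they are also those for the next list. Pomp, the maturation factor of the 20S core, stood at 269.6, 247, 229 and 259 CPM. Its log2 ratio between genotypes was -0.12 (-0.18 to -0.07) in TCRβ and 0.18 (0.08 to 0.28) in TCRγδ. With TMM factors, which move every TCRβ genotype ratio up by 0.068, the TCRβ interval reached 0. With DESeq2 size factors it stayed just below 0. Nfe2l2, a stress regulator of proteasome genes, was higher in Tcf7KO in both sorts (0.28, 0.18 to 0.39, and 0.29, 0.10 to 0.48). The ubiquitin gene Ubb was higher in TCRγδ in both genotypes, at 42.7, 48.9, 81.2 and 87.0 CPM.

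A list of 22 interferon and peptide-loading genes gave the setting of the immunoproteasome set. Between the TCRβ genotypes 1 was at least 1.2-fold lower and 3 were higher, with a median log2 ratio of -0.01. Between the TCRγδ genotypes 8 were lower and 2 higher, with a median of -0.12. In TCRγδ against TCRβ 4 were lower and 6 higher in Tcf7WT, with a median of 0.02, and 9 were lower and 1 higher in Tcf7KO, with a median of -0.19. Ifng, for interferon-γ, stood at 63.8, 51.4, 130.6 and 29.0 CPM, highest in TCRγδ Tcf7WT and lowest in TCRγδ Tcf7KO (-2.17, -2.40 to -1.95 between them). Irf1, an interferon-induced activator, stood at 273, 239, 229.9 and 163 CPM (-0.19 in TCRβ and -0.49 in TCRγδ between genotypes). Ifngr2, a chain of the interferon-γ receptor, was higher in Tcf7KO in both sorts (0.72, 0.49 to 0.96, and 0.89, 0.33 to 1.47), as was the interferon regulatory factor Irf8 (0.47 and 0.70). Among the genes beside Psmb8 and Psmb9, Tap1 was at -0.05 (-0.13 to 0.03) and -0.16 (-0.31 to -0.01), and Tap2 at -0.22 (-0.29 to -0.15) and -0.30 (-0.44 to -0.16), between the genotypes of TCRβ and TCRγδ. Their part in the levels of Psmb8 and Psmb9 was not tested.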

How the data were processed

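Single-cell RNA libraries were made with the 10x Chromium 3′ kit (v2), per the labels' protocols. Each library's deposited matrix gives UMI counts (whole numbers) of gene symbols in cells, and was used unchanged. The submitters' processing notes name Seurat 3.0.0, GRCm38 and mm10 without a role; aligner, filters and removal of doublets are not given in the sources used here. No doublet caller was run. Counts were summed per library and divided by its total UMIs. A group is 1 library, so no test between groups was made. Poisson, conditional and Clopper-Pearson 95% intervals cover counting error only, and UMIs, not reads, were counted. Ratio intervals were tried on simulated Poisson counts. These follow the model behind the intervals and hold no spread between cells or libraries, so the trial cannot show how the intervals cover such spread. A floor is 3 counts.

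All-gene shares rest on genes that both libraries list and that sum to 100 UMIs or more. Members named in full were the immunoproteasome genes, Psmb5, Psmb6, Psmb7 and, per comparison, the 3 highest and 3 lowest ratios of the other members; further genes were singled out after their values were seen. From the lists of 26 and 22, the largest ratios could be named; Pomp, Irf1, Tap1 and Tap2 were added after their values were seen. The members and lists were chosen with earlier results of these data known. Coordinates are from GENCODE M21 (GRCm38) and promoter windows from RefSeq (GRCm38.p6). Python 3.11.15, scipy 1.17.1, edgeR 4.0.16 (TMM factors) and DESeq2 1.42.0 (size factors) were used, the last pair for scaling alone. Alternatives were other scalings, cell weights, cell filters, UMI minimums and thinning depths.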

Additional observations from a re-analysis of the deposited data

Results flagged for a closer look

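Counting intervals of the genotype ratio lay on opposite sides of 0 in the 2 sorts, in either direction, for 4 of 45 members and 3.34% of 9108 genes. All 4 were below 0 in TCRβ and above 0 in TCRγδ, as were 2.13% of genes. With TMM factors 3 members were (Psmb2, Psma1 and Psma6), as were 1.26% of genes. With DESeq2 size factors 4 were (these and Psmb6), as were 1.36% of genes. So only Psmb2 of the 4 below was among them under each scaling. The difference between the sorts was not tested, since each sort has 1 library per genotype. Psma5, an α ring gene, was at -0.14 (-0.22 to -0.06) in TCRβ and 0.25 (0.11 to 0.40) in TCRγδ. Psmb2, a β ring gene without an active site, was at -0.16 (-0.22 to -0.10) and 0.15 (0.04 to 0.26). Psmb4, of the same ring, was at -0.089 (-0.15 to -0.03) and 0.13 (0.03 to 0.23). Psmd13, a lid subunit, was at -0.14 (-0.22 to -0.05) and 0.23 (0.09 to 0.38). All 4 had their lowest level in TCRγδ Tcf7WT.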

How the results depend on the processing

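No paired analysis was possible because each group is 1 library and the labels carry no replicate numbers. The counts of members at 1.2-fold, and of members with intervals of both sorts on given sides of 0, are given under other scalings in the report. These were tried after seeing the data. Psmb8 and Psmb9 were lower in Tcf7KO in both sorts under each of the 6 alternatives of scaling, cell weights and cells kept. The scalings moved the median of all genes by 0.04 to 0.07. Sums are log2 ratios, first the immunoproteasome set and then the other members. TMM factors gave -0.025 and -0.017 for the TCRβ genotypes, -0.048 and 0.12 for the TCRγδ genotypes, -0.081 and -0.11 for the sorts in Tcf7WT and -0.10 and 0.026 for the sorts in Tcf7KO. DESeq2 size factors gave -0.028 and -0.020, -0.045 and 0.12, -0.088 and -0.12, and -0.10 and 0.025. So the other members of the Tcf7KO sorts turned from -0.02 to above 0 with both, as did Psmb10 between the TCRβ genotypes (0.024 and 0.021), and Psmb5 with TMM (0.0027). Psmb5 also turned above 0 with both between the TCRγδ genotypes (0.036 and 0.039) and between the Tcf7KO sorts (0.0017 and 0.00071). Psme2 did so between the TCRγδ genotypes (0.0075 and 0.011). With each cell weighing the same, the other members were at -0.10 between the TCRβ genotypes, the TCRγδ genotypes were at 0.0018 and 0.11, the sorts in Tcf7WT at -0.19 and -0.24, and the immunoproteasome set of the Tcf7KO sorts at -0.091. With cells of 500 to 3500 genes the TCRγδ genotypes were at -0.031 and 0.055 and the Tcf7KO sorts at -0.089 and -0.042. Without epithelial cells the immunoproteasome set was at -0.039 between the TCRγδ genotypes and -0.092 between the Tcf7KO sorts, and without cycling cells at -0.12 between the Tcf7KO sorts. Between the Tcf7KO sorts 1 member was 1.5-fold apart with each cell weighing the same, with 500 to 3500 genes, without epithelial cells and without cycling cells. The share of all genes under these settings is not given here. Without cycling cells, Psmb8 held 75.9% of its pair in TCRγδ Tcf7KO. Thinned to 1000 UMIs, a Psmb8 UMI was in 56.9%, 52.9%, 51.6% and 51.3% of cells and a Psmb9 UMI in 23.7%, 19.03%, 24.3% and 21.8%, in the library order of the report. Against deep cells outside the cycling gate the other members were at 0.29, 0.26, 0.13 and 0.17, and without the deepest epithelial cell they were at 0.11, -0.094, -0.046 and 0.0010; both alternatives were chosen after seeing the data. The cause of these moves was not tested. With no UMI minimum, 12.4%, 19.6%, 22.9% and 25.5% of all genes were 1.5-fold apart in the 4 comparisons, and with 500 UMIs 1.66%, 4.19%, 8.23% and 9.48%. Depth limits Psmg2, Psmc2, Psmc6 and Psmc3ip most.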
